A study of Mus musculus with 7 samples.

Results

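The genes described here are 10 genes of antigen presentation by major histocompatibility complex (MHC) class II: the classical chains H2-Aa, H2-Ab1 and H2-Eb1, the invariant chain Cd74, the transactivator Ciita, the peptide exchange genes H2-DMa, H2-DMb1 and H2-DMb2, and the lysosomal genes Ctss and Ifi30. They were chosen by gene name, each name matched 1 gene, and the 10 genes are part of the 38293 genes counted, of which 14869 passed a filter on low counts, these 10 among them. RNA was sequenced from scrapings of the ileum, made in the same way as colon scrapings that hold epithelium and lamina propria but no muscle layer, to ask whether less dietary cystine alters gene expression in the small intestine. The mice were male, of the strain C57BL/6NRJ, 8 weeks old and housed singly. Every mouse first spent 1 week on the control diet, a purified high fat diet low in calcium with 40% of its energy from fat. For the next 2 weeks 1 group stayed on that diet with 0.38% cystine (normal cys). The other group received the same diet with 0.08% cystine, the added cystine being replaced by alanine (low cys). The study fed 8 mice per group, and the libraries described here come from 4 normal cys and 3 low cys mice. Each library came from a different mouse, so the tests of diet set the difference between the diets against the spread between mice. The normal cys libraries, replicates 1 to 4, held 19712355, 21410743, 21140505 and 22412703 counts, and the low cys libraries, replicates 1 to 3, held 21942518, 15708368 and 14888760 counts. Levels are given as CPM, counts scaled to library size with TMM factors, and are listed in the order of the replicates.

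MHC class II molecules are pairs of an alpha and a beta chain that take up peptides in endosomes and show them at the cell surface to helper T cells. The invariant chain fills the groove of a new pair until lysosomal proteases remove it, and the H2-DM molecule then exchanges its last fragment for other peptides. In the small intestine the pathway is known from dendritic cells, macrophages and B cells, and epithelial cells also use it, above all under interferon gamma.

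The label of the tissue was checked against markers. The epithelial genes Epcam and Vil1 lay between 2007 and 3164 CPM and between 2195 and 3792 CPM, and the ileal bile acid binding protein gene Fabp6 lay between 2848 and 7454 CPM. Ptprc, a gene of all leukocytes, lay between 28.4 and 48.6 CPM. In libraries of a whole tissue, fewer cells of a type and less RNA per cell cannot be told apart. Normal cys replicate 4 and low cys replicate 1 stood apart from the other 5 libraries, as 7 of the 10 genes had their 2 lowest values in them, and the differences between the diets are therefore also given without each of these libraries.

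H2-Aa encodes the alpha chain of the I-A molecule. On normal cys its level was 1143, 1092, 927 and 484 CPM, and on low cys it was 421, 1021 and 749 CPM. The values of normal cys replicate 4 and low cys replicate 1 were below all others, and the remaining libraries of both diets overlapped. The means were 911 ± 299.6 CPM (SD, n = 4) on normal cys and 730.5 ± 300.3 CPM (SD, n = 3) on low cys, a log2 fold change of −0.32 (SE 0.36, 95% confidence interval −1.12 to 0.49, edgeR adjusted p = 0.836). H2-Ab1, which encodes the beta chain of I-A, was at 986, 1012, 1004 and 541 CPM on normal cys and at 469, 912 and 779.5 CPM on low cys. The normal cys replicates 1 to 3 were close together, while replicate 4 had little more than low cys replicate 1. Its means of 886 ± 230.0 and 720.0 ± 227 CPM (SD, n = 4 and 3) gave a log2 fold change of −0.30 (SE 0.28, edgeR adjusted p = 0.818). H2-Eb1, the gene of the beta chain of I-E, measured 525, 557, 538 and 275 CPM on normal cys and 272, 483 and 413 CPM on low cys. The order of the libraries was that of H2-Ab1, with low cys replicates 2 and 3 between the low pair of libraries and the normal cys replicates 1 to 3. The log2 fold change of H2-Eb1 was −0.28 (SE 0.28, 95% confidence interval −0.91 to 0.35, edgeR adjusted p = 0.821). The gene of its partner, the alpha chain of I-E, is named as a pseudogene (H2-Ea-ps) in the annotation of the reference genome used for counting. H2-Ea-ps had 0 counts in the 7 libraries. A count of 0 allows a level of up to 0.193 CPM in the shallowest library by counting error alone. Other mouse strains were not examined.

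The estimates of the 3 classical chains moved with single libraries of both diets. Without normal cys replicate 4 the log2 fold changes were −0.53 for H2-Aa, −0.47 for H2-Ab1 and −0.47 for H2-Eb1. Without low cys replicate 2 they were −0.62, −0.48 and −0.44, and without low cys replicate 1 they were nearest to 0, at −0.03, −0.06 and −0.07. H2-Aa was also closer to 0 without normal cys replicate 1 (−0.19) or 2 (−0.21), as was H2-Eb1 without normal cys replicate 2 (−0.18). None of the 3 passed an adjusted p of 0.05 with any library left out, and the smallest unadjusted p was 0.0491 for H2-Eb1 without normal cys replicate 4 (edgeR, adjusted p = 0.811, with 0.727 to 1.000 over the 13 alternatives tried for this gene).

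Cd74, the invariant chain, had the highest level per exon length of the 10 genes. Its level was 2587, 2528, 2188 and 1340.3 CPM on normal cys and 1393, 2266 and 1993 CPM on low cys. Normal cys replicate 4 and low cys replicate 1 were nearly equal and low, and the other 2 low cys libraries reached the range of the other normal cys libraries or lay just below it. The means were 2161 ± 574 and 1884 ± 447 CPM (SD, n = 4 and 3), with a log2 fold change of −0.20 (SE 0.26, 95% confidence interval −0.79 to 0.40, edgeR adjusted p = 0.854). Without low cys replicate 1 the log2 fold change of Cd74 was −0.01, and without normal cys replicate 4 it was −0.37. It was −0.33 without low cys replicate 2, and −0.10 without either normal cys replicate 1 or 2. Cd74 alone took 0.125% to 0.260% of the counts of a library. The 10 genes together took 0.560, 0.587, 0.465 and 0.284% of the counts on normal cys and 0.329, 0.530 and 0.457% on low cys, so that normal cys replicates 2 and 4 lay further apart than the means of the diets (0.474% ± 0.137, SD, n = 4, and 0.439% ± 0.102, SD, n = 3).

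Ciita, the coactivator on which transcription of the class II genes depends, was at 65.2, 43.1, 38.5 and 22.8 CPM on normal cys and at 36.0, 58.1 and 39.2 CPM on low cys. Normal cys replicate 1 was highest and replicate 4 lowest, so the normal cys libraries enclosed the low cys ones. The log2 fold change was 0.07 (SE 0.32, edgeR adjusted p = 0.963), and its sign turned without normal cys replicate 4 (−0.14) and without low cys replicate 2 (−0.15).

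**Figure D1:**
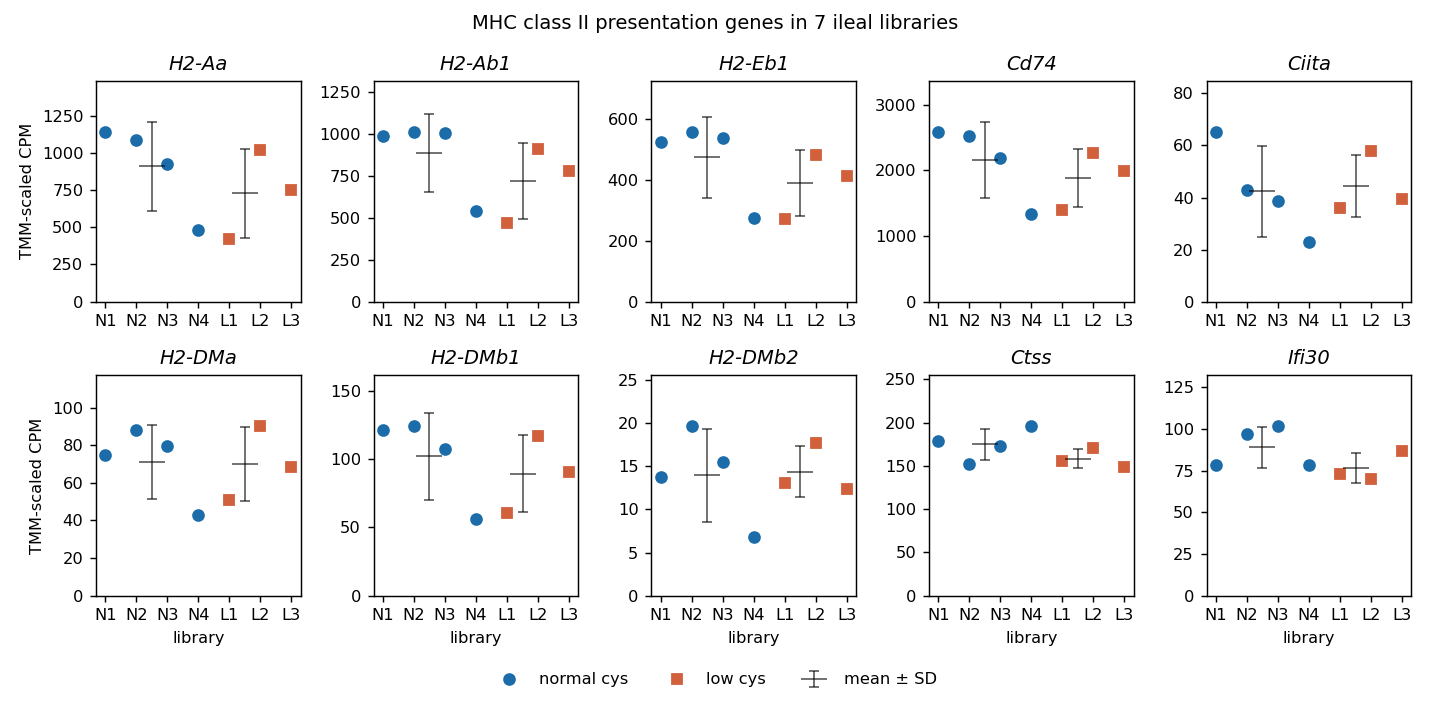
TMM-scaled CPM (vertical axes, from 0) of the 10 genes in each library (N1 to N4, normal cys replicates 1 to 4, circles; L1 to L3, low cys replicates 1 to 3, squares), with the mean ± SD of each diet in black. N4 and L1 hold the lowest Cd74 values, 1340.3 and 1393 CPM, while Ctss has its highest value, 196 CPM, in N4.

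H2-DMa encodes the alpha chain of H2-DM, and H2-DMb1 and H2-DMb2 encode alternative beta chains. H2-DMa was at 74.7, 88.0, 79.4 and 42.7 CPM on normal cys and at 51.0, 90.2 and 68.7 CPM on low cys. H2-DMb1 was at 121, 124, 107 and 55.8 CPM and at 60.6, 117 and 90.4 CPM. For both genes the lowest values were again those of normal cys replicate 4 and low cys replicate 1, and low cys replicate 2 lay among the normal cys replicates 1 to 3 or above them. H2-DMb2 was lower, at 13.8, 19.7, 15.5 and 6.83 CPM on normal cys and 13.1, 17.7 and 12.3 CPM on low cys, and low cys replicate 1 was not among its 2 lowest libraries. Log2 fold changes were −0.03 for H2-DMa, −0.20 for H2-DMb1 and 0.04 for H2-DMb2, each smaller than its SE (0.27, 0.30 and 0.32), with edgeR adjusted p from 0.868 to 0.985. The sign of each turned when a library was left out, as without low cys replicate 1 it was 0.17 for H2-DMa and 0.030 for H2-DMb1. That of H2-DMa turned also without normal cys replicate 2 (0.11) or 3 (0.022), and H2-DMb2 was at −0.18 without normal cys replicate 4 and at −0.11 without low cys replicate 2. The values of the beta chain genes are uncertain, because 22.7% of the 50-base stretches of the H2-DMb1 transcripts and 25.9% of those of H2-DMb2 also occur in another gene, most of them in each other. H2-DMa shared 8.43% of its stretches, all of these with Brd2, whereas H2-Ab1, H2-Eb1, Cd74 and Ctss shared 0.

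Ctss encodes cathepsin S, the protease that trims the invariant chain. Its level was 179, 152, 173 and 196 CPM on normal cys and 156, 170.2 and 149 CPM on low cys. The highest value was that of normal cys replicate 4, the library with the lowest Cd74, and the low cys libraries lay within or just below the normal cys range. The log2 fold change was −0.14 (SE 0.13, 95% confidence interval −0.43 to 0.15, edgeR adjusted p = 0.809). Ifi30, the gene of a lysosomal thiol reductase that opens disulfide bonds of antigens, measured 78.2, 97.1, 102 and 78.7 CPM on normal cys and 73.1, 69.7 and 86.9 CPM on low cys. Low cys replicates 1 and 2 were below all normal cys libraries and low cys replicate 3 was among them. Its log2 fold change was −0.22 (SE 0.15, 95% confidence interval −0.55 to 0.12), and its unadjusted p of 0.175 was the smallest of the 10 genes (edgeR adjusted p = 0.794). Both lysosomal genes varied less between mice of 1 diet than the other members did: on normal cys the SD was 10.4% of the mean for Ctss and 13.8% for Ifi30, against 25.98% for H2-Ab1 and 41.3% for Ciita, which were the lowest and the highest of the other 8. The CPM ratio of Ctss to Cd74 was 0.0691, 0.0602, 0.0791 and 0.146 on normal cys and 0.112, 0.0751 and 0.0750 on low cys, highest in normal cys replicate 4 and next in low cys replicate 1.

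Over the 10 genes, 0 had an adjusted p under 0.05 in edgeR's quasi-likelihood test, beside 0 of the 14869 genes tested (0%). At an unadjusted p under 0.05, 0 of the 10 were higher on low cys, where 2.66% of all genes tested were, and 0 were lower, where 2.83% were. The libraries of the diets overlapped for all 10 genes, whereas they did not overlap for 6.83% of all genes tested. DESeq2 called 0 of the 10 and 16 genes in all (0.108%), and limma-voom called 0 genes over the whole table. The exact two-sided permutation test over the 35 groupings of the libraries, whose smallest possible p is 0.0286, gave p from 0.200 to 1.00 for the 10 genes. Estimates were below 0 for 8 members and above 0 for Ciita and H2-DMb2, with a median log2 fold change of −0.20 beside 0.0072 over all genes tested. H2-Aa, H2-Ab1, H2-Eb1, Cd74, H2-DMa and H2-DMb1 all had their lowest values in normal cys replicate 4 and low cys replicate 1. Their estimates below 0 are therefore not separate observations. Ctss and Ifi30, also below 0, did not share this pattern. Without low cys replicate 1, 6 of the 10 estimates were below 0 and the median was −0.022, while without normal cys replicate 4 all 10 were below 0 and the median was −0.32. All 10 were below 0 also without low cys replicate 2, with a median of −0.28. The intervals allowed for Cd74 a level on low cys from 0.576 to 1.32 times that on normal cys, for H2-Aa from 0.459 to 1.40 times, and for Ctss from 0.740 to 1.11 times.

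**Figure D2:**
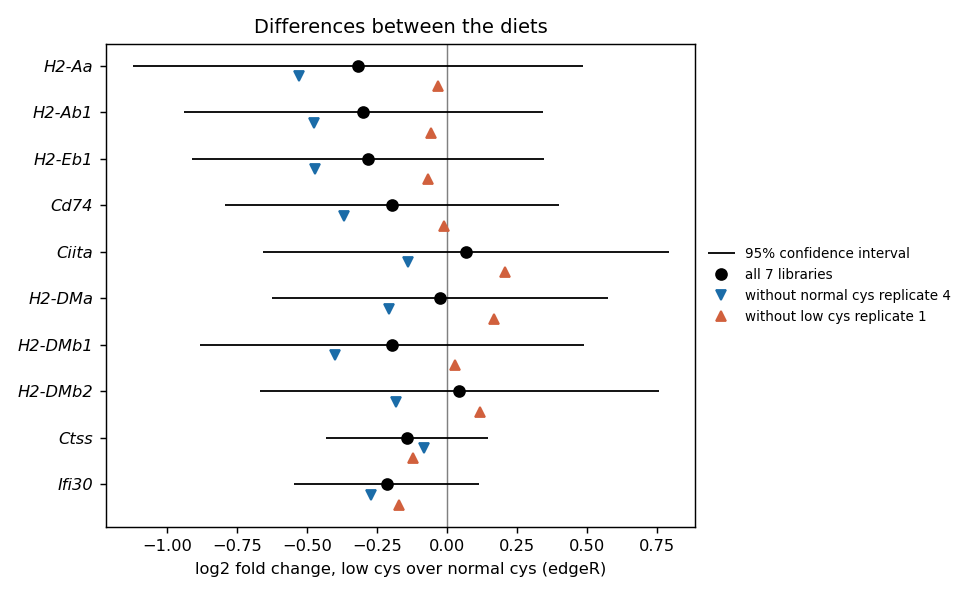
Log2 fold changes of low cys over normal cys from edgeR (horizontal axis) for the 10 genes, with all 7 libraries (circles, lines show 95% confidence intervals), without normal cys replicate 4 (downward triangles) and without low cys replicate 1 (upward triangles). All 10 intervals include 0, and for Cd74 the estimate of −0.20 was −0.37 without the former library and −0.01 without the latter.

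Levels of different genes were compared as CPM per kilobase of exon length. Cd74 was highest at 1448 ± 357 (SD, n = 7), rank 40 of the 14869 genes tested, and exceeded H2-Ab1 in each of the 7 libraries. H2-Ab1 (498 ± 139), H2-Aa (445 ± 155) and H2-Eb1 (371 ± 103) followed, and these neighbours differed by less than their SDs over the libraries, although within libraries H2-Ab1 exceeded H2-Aa in 6 of 7 and H2-Aa exceeded H2-Eb1 in 6 of 7. Ctss (124 ± 12.3) came next and was below H2-Eb1 in each library, while Ifi30 (85.3 ± 12.4) and H2-DMb1 (65.4 ± 19.4) changed places in 2 of the 7 libraries. H2-DMa stood at 43.1 ± 10.99, and H2-DMb2 (8.26 ± 2.43) and Ciita (8.24 ± 2.702) were lowest and did not differ beyond their spread. The ratio of Cd74 to the sum of the 3 classical chains, per kilobase, was 1.11, 1.07, 0.992 and 1.16 on normal cys and 1.33, 1.06 and 1.15 on low cys. It was highest in low cys replicate 1, and the diets overlapped. The ratio of H2-Aa to H2-Ab1 per kilobase was 1.01, 0.943, 0.807 and 0.781 on normal cys and 0.786, 0.978 and 0.839 on low cys, so H2-Aa was lowest relative to H2-Ab1 in normal cys replicate 4 and low cys replicate 1, where both were low.

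In the annotation of GRCm38 used for counting, 6 of the 10 genes lie on chromosome 17 within 181 kb (chr17:34135182-34316199), in the order H2-DMa, H2-DMb2, H2-DMb1, H2-Ab1, H2-Aa and H2-Eb1. Cd74 lies on chromosome 18, Ciita on chromosome 16, Ctss on chromosome 3 and Ifi30 on chromosome 8, so Cd74 and Ciita shared the pattern over libraries without sharing the position.

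Relations with Cd74 over the 7 libraries were computed on log2 CPM for the other 9 members. Cd74 left a gap between the low pair of libraries (1340.3 and 1393 CPM) and the next library (1993 CPM), so each r is also given over the other 5 libraries, the pair being the libraries farthest from the median of Cd74. Both sides of the gap hold fewer than 6 libraries, and no test was run within a side. For H2-DMb1, Pearson's r was 0.99 (exact permutation p = 0.000794, adjusted over the 9 relations 0.00714), Spearman's rho was 0.96 (exact permutation p = 0.00278, adjusted 0.0125), and r without the pair was 0.93. For H2-Aa the values were r = 0.99 (exact permutation p = 0.00198, adjusted 0.00893), rho = 0.96 (exact permutation p = 0.00278, adjusted 0.0125) and r = 0.96 without the pair. These genes followed Cd74 also among the libraries where it was high. H2-Ab1 and H2-Eb1 had r of 0.96 and 0.98 (exact permutation p = 0.00873 and 0.00754, adjusted 0.0196 for both), an equal rho of 0.79 (exact permutation p = 0.0480, adjusted 0.0852), and r of 0.78 and 0.78 without the pair. For Ciita, r was 0.81 (exact permutation p = 0.0123, adjusted 0.0221), rho was 0.93 (exact permutation p = 0.00675, adjusted 0.0202), and r without the pair was 0.61. H2-DMa had r = 0.93 (exact permutation p = 0.0194, adjusted 0.0292) and rho = 0.75 (exact permutation p = 0.0663, adjusted 0.0852), but r = 0.44 without the pair, so the relation rested on these 2 libraries. For H2-DMb2 (r = 0.76, exact permutation p = 0.0460, adjusted 0.0592; rho = 0.75, exact permutation p = 0.0663, adjusted 0.0852) the relation missed the threshold after adjustment, and r was 0.49 without the pair. The lysosomal genes did not pass: for Ctss r was −0.24 and rho −0.07 (exact permutation p = 0.564 and 0.906, adjusted 0.564 and 0.963). For Ifi30 r was 0.37 and rho 0.04 (exact permutation p = 0.429 and 0.963, adjusted 0.483 and 0.963). Without the pair, r was 0.38 for Ctss and −0.10 for Ifi30. No sequencing batch is given for these libraries, so none was examined within batches.

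The 10 genes whose log2 CPM was most like the mean of H2-Aa, H2-Ab1, H2-Eb1 and Cd74 were taken from 10309 other genes with a mean of at least 5 CPM, by Pearson's r over the 7 libraries, as a description without a test. They were Ifit3 (r = 0.99), Aste1 (r = 0.98), Psme2 (r = 0.97), Pvrl2 (r = 0.97), Nfyc (r = 0.96), Usp18 (r = 0.96), Qpctl (r = 0.95), Pafah1b3 (r = 0.95), Psme2b-ps (r = 0.95) and Sdhc (r = 0.94). Among them are the interferon-induced genes Ifit3 and Usp18, the proteasome activator subunit gene Psme2 and Nfyc, which encodes a subunit of the factor that binds the Y box of class II promoters. Ifit3 was at 13.4, 16.6, 12.8 and 5.21 CPM on normal cys and at 5.51, 12.7 and 9.28 CPM on low cys, so it shared the low pair of libraries with Cd74. Nfyc spanned far less, from 41.8 to 51.7 CPM, a ratio of 1.24 between the highest and lowest library, against 2.71 for H2-Aa.

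Of 23 other genes of the class II pathway, 21 were tested, 0 had an adjusted p under 0.05 (edgeR), and 0 had an unadjusted p under 0.05 in either direction, with a median log2 fold change of 0.05. The genes with the smallest p were Creb1 (log2 fold change 0.33) and Marchf8 (−0.24). By mean level per length the protease gene Ctsb came first, nearly equal to the next gene (92.9 and 92.8 CPM per kilobase). Ctsb was at 499, 483, 427 and 376 CPM on normal cys and 433, 448 and 414 CPM on low cys. H2-Ob, chosen after its values were seen, encodes the beta chain of H2-DO, which restrains H2-DM and is known from B cells. Its level was 1.20, 12.3, 10.3 and 1.67 CPM on normal cys and 6.82, 12.1 and 1.29 CPM on low cys. It was low in normal cys replicate 4, as Cd74 was, but also in normal cys replicate 1 and low cys replicate 3, the same libraries in which B cell genes were low. The mean of these 21 genes had r = 0.32 and rho = 0.36 with Cd74 (exact permutation p = 0.389 and 0.444, adjusted 0.560 and 0.719), and r = 0.14 without the pair.

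The mean level of MHC class I genes followed that of Cd74. Over 13 lists of genes set beside Cd74, the mean log2 CPM of the 15 class I genes had the highest r, 0.90 (exact permutation p = 0.00198, adjusted over the 13 lists 0.0258), with rho = 0.96 (exact permutation p = 0.00278, adjusted 0.0361) and r = 0.85 without the pair. Their summed level was 8493, 7449.6, 7399 and 6334 CPM on normal cys and 5242, 7348 and 6275 CPM on low cys. Single genes departed from this: H2-K1, a classical class I chain, was at 1852, 1950.5, 2049 and 1900.1 CPM on normal cys and 971, 1739.8 and 1529 CPM on low cys, so that it was low with Cd74 in low cys replicate 1 but not in normal cys replicate 4, and the diets did not overlap (edgeR adjusted p = 0.794). The diets did not overlap for 2 of the 15 class I genes, both lower on low cys, beside 6.83% of all genes tested in either direction, and the other, H2-T3, chosen after its values were seen, was at 273, 269, 299 and 289.6 CPM on normal cys and 204, 267 and 253 CPM on low cys. Of the 15 class I genes 0 were called (edgeR), with a median log2 fold change of −0.10, the smallest p being those of H2-K1 (−0.46) and Erap1 (0.26), and B2m was the most abundant per length. The interferon gamma list, 17 of 18 genes tested and 0 called (edgeR), had a median log2 fold change of −0.19 and r = 0.77 with Cd74 (exact permutation p = 0.0147, adjusted 0.0636), rho = 0.86 (exact permutation p = 0.0238, adjusted 0.103), and r = 0.82 without the pair. Its smallest p were those of Ido1 (log2 fold change −0.93) and Ifngr2 (−0.27), the latter also its most abundant gene per length. Ifng itself lay between 0 and 0.750 CPM and was not tested.

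Marker lists of cell types were set beside Cd74 in the same way. The T cell and intraepithelial lymphocyte list had r = 0.84 (exact permutation p = 0.00913, adjusted 0.0593), rho = 0.93 (exact permutation p = 0.00675, adjusted 0.0438) and r = 0.83 without the pair. Its 10 genes summed to 284, 158, 169.8 and 150.1 CPM on normal cys and 112, 180.3 and 147 CPM on low cys, with Gzma the most abundant per length. The B cell list had r = 0.27 and rho = 0.21 with Cd74 (exact permutation p = 0.431 and 0.662, adjusted 0.560 and 0.782), and r = 0.13 without the pair. Its 11 genes summed to 16.6, 109, 88.9 and 15.05 CPM on normal cys and 58.2, 100.2 and 17.5 CPM on low cys, Cd79a being the most abundant per length. Normal cys replicate 1 thus joined the highest Cd74 level to a B cell sum near the lowest, with Ms4a1 at 0.732 CPM, whereas low cys replicate 1 joined low Cd74 to Ms4a1 at 6.24 CPM. The macrophage markers C1qa and Csf1r differed in the low pair of libraries. C1qa was at 8.62, 9.54, 7.73 and 1.19 CPM on normal cys and 8.04, 9.44 and 11.3 CPM on low cys. It was lowest in normal cys replicate 4 but not low in low cys replicate 1. Csf1r was at 8.78, 7.09, 7.62 and 3.82 CPM on normal cys and 6.57, 9.50 and 11.3 CPM on low cys. Its lowest values were those of the low pair. Of the macrophage genes, 12 of 13 were tested, and Mertk was the most abundant per length. Together they summed to 255, 224, 238 and 250.3 CPM on normal cys and 218, 211 and 216 CPM on low cys. For dendritic cells, 6 of 11 genes were tested. The 11 summed to 13.6, 13.9, 14.98 and 5.59 CPM on normal cys and 11.3, 14.7 and 13.1 CPM on low cys. This sum was lowest in the low pair of libraries. Itgax, the most abundant per length, was at 7.37, 5.22, 8.20 and 3.44 CPM on normal cys. On low cys it was at 4.73, 6.94 and 6.44 CPM, so it was also lowest in the pair. The same held for Flt3 (0.382 and 0.408 CPM in the pair, up to 1.14 CPM elsewhere), which had only 8 to 25 counts per library. Sirpa was low in normal cys replicate 4 (0.621 CPM) but not in low cys replicate 1 (4.08 CPM). The macrophage and dendritic cell lists had r = 0.62 and 0.77 with Cd74 (exact permutation p = 0.231 and 0.0437, adjusted 0.397 and 0.127), rho = 0.32 and 0.75 (exact permutation p = 0.498 and 0.0663, adjusted 0.719 and 0.215), and r = −0.28 and 0.47 without the pair. With values centred within each diet, r of Cd74 was 0.86 with the macrophage list (unadjusted exact permutation p = 0.0214) and 0.83 with the stroma list (unadjusted exact permutation p = 0.0155), neither of which had an unadjusted p under 0.05 without centring. Among the lists reported here, the class I, T cell, dendritic cell and interferon gamma lists had an unadjusted p under 0.05 both ways. In this order their centred r was 0.91, 0.84, 0.85 and 0.78 (unadjusted exact permutation p = 0.000397, 0.00119, 0.0349 and 0.00952). The 8 genes of all leukocytes summed to 153, 219.7, 192 and 107 CPM on normal cys and 150.4, 206 and 127 CPM on low cys, lowest in normal cys replicate 4, while low cys replicate 1 was close to normal cys replicate 1, and Coro1a was the most abundant per length. The 13 enterocyte genes, led by Fabp2, summed to 35639, 40459, 52227 and 55687 CPM on normal cys and 22211, 35745 and 35454 CPM on low cys, so that the pair low in Cd74 held the highest and the lowest enterocyte sum. The part of these cell types in the levels of the class II genes was not tested. The correlations of Cd74 with 5 further lists, computed without centring, did not pass after adjustment. Pearson's r was 0.66 for all leukocytes, 0.60 for plasma cells, 0.07 for Peyer's patch and follicle genes, 0.15 for enterocytes and 0.25 for stroma (exact permutation p = 0.140, 0.244, 0.866, 0.722 and 0.560, smallest adjusted 0.304). In the same order, rho was 0.57, 0.39, 0.07, −0.29 and 0.14 (exact permutation p = 0.200, 0.396, 0.906, 0.556 and 0.783, smallest adjusted 0.433), and r without the pair was 0.35, −0.30, 0.25, −0.23 and −0.48.

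**Figure D3:**
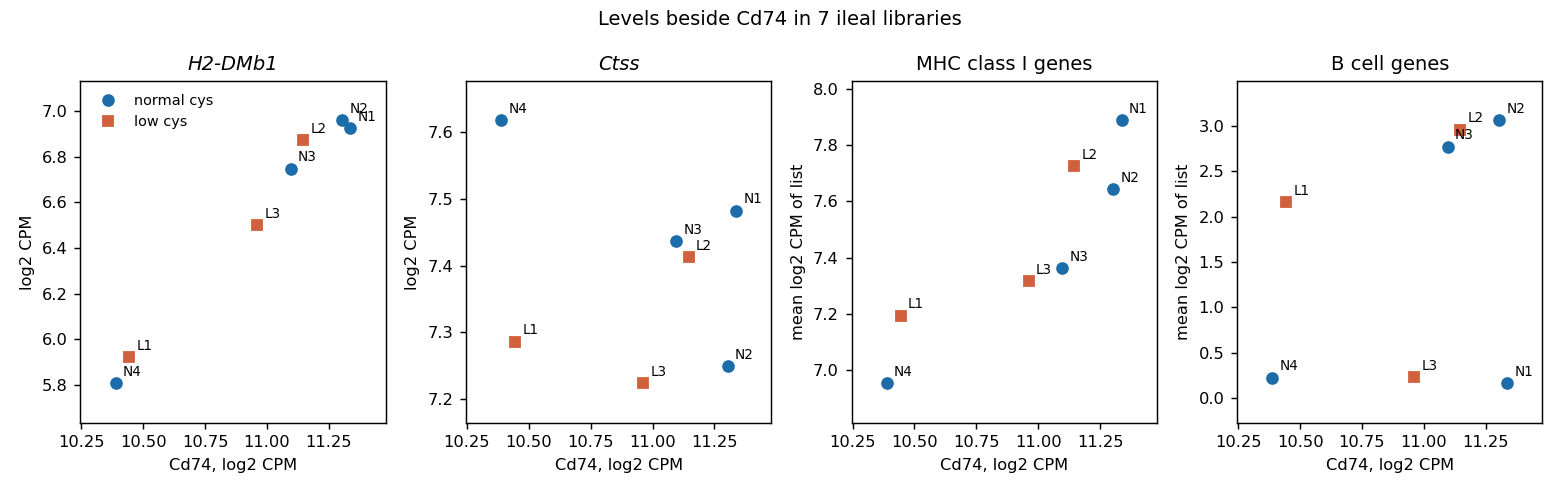
Log2 CPM of H2-DMb1 and Ctss and the mean log2 CPM of the MHC class I and B cell lists (vertical axes) against log2 CPM of Cd74 (horizontal axes) in the 7 libraries (N1 to N4, normal cys, circles; L1 to L3, low cys, squares). H2-DMb1 follows Cd74 (r = 0.99), Ctss does not (r = −0.24), and the class I list (r = 0.90) is closer to Cd74 than the B cell list (r = 0.27).

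Between the diets, 0 genes of the 10 cell type lists had an adjusted p under 0.05 in edgeR. The median log2 fold changes of 9 of these lists were −0.10 for the leukocyte list, −0.00024 for B cells, 0.25 for plasma cells, 0.40 for macrophages, 0.12 for dendritic cells, −0.28 for T cells, −0.20 for Peyer's patch and follicle genes, −0.37 for enterocytes and 1.03 for stroma, beside −0.20 for the 10 class II genes. An unadjusted p under 0.05 was found for Jchain of the plasma cell list (log2 fold change 1.25), for Dcn and Col3a1 of the stroma list (1.56 and 1.59), and for Krt20 and Apoa1 of the enterocyte list (−0.41 and −0.79), and of these Dcn had a DESeq2 adjusted p under 0.05. The smallest p of 5 other lists, each above 0.05, were those of Cd53 (log2 fold change 0.34) and Arhgdib (−0.15) for leukocytes, Cd37 (−0.24) and Cr2 (0.46) for B cells, and Clec9a (0.70) and Sirpa (0.37) for dendritic cells. They were those of Cd3g (−0.35) and Gzma (−0.55) for T cells and of Ccl20 (−0.88) and Bcl6 (−0.20) for Peyer's patch and follicle genes, of which Cxcl13 was the most abundant per length, and Sdc1 (−0.19) came after Jchain in the plasma cell list, of which Jchain was the most abundant.

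Class II promoters are known to carry an X box and a Y box, which bind the RFX and NF-Y factors. The letters AGNNACNGA of the X box and the core CCAAT of the Y box were searched on both strands of the RefSeq promoter windows of GRCm38.p6, 250 bases before to 50 bases after the start of transcription, in which 7 of the 10 genes had an entry and H2-Ab1, Cd74 and Ciita had none. The X box letters were found in 2 of the 7 genes, H2-Eb1 and H2-DMb1, and in 17.7% of all 32851 windows. CCAAT was found in 5 of the 7, H2-Aa, H2-Eb1, H2-DMa, H2-DMb1 and H2-DMb2, and in 37.4% of all windows, and both were found in 2 of the 7 and in 6.54% of all windows. The window of H2-DMa with the match (chr17:34125268-34125567) and that of H2-DMb2 (chr17:34144999-34145298) do not lie at the starts of the genes as counted (34135182 and 34143307), and another RefSeq window of H2-DMa held no match. In the windows of Ctss and Ifi30 neither set of letters was found. In H2-Eb1 24 bases separated the X box letters from the next CCAAT, and in H2-DMb1 25 bases did. Of the windows of the other genes, that of H2-DMb1 lies at a RefSeq start downstream of the first base of the gene as counted (34153072), so that the stretch shown for it falls almost wholly within the counted gene. The stretches from 120 to 21 bases before the RefSeq start of transcription of 3 genes that shared the low pair of libraries are shown 5′ to 3′ on the gene's strand as RefSeq gives them, with matches to these letters on either strand in capitals, at chr17:34287844-34287943 (minus strand) for H2-Aa, chr17:34305747-34305846 (plus strand) for H2-Eb1 and chr17:34153071-34153170 (plus strand) for H2-DMb1.
H2-Aa: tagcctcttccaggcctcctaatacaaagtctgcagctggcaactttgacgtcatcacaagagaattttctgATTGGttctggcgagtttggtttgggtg
H2-Eb1: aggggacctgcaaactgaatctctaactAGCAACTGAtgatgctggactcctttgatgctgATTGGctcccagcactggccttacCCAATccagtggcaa
H2-DMb1: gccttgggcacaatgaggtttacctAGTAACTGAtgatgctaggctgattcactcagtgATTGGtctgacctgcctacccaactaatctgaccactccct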

How the data were processed

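RNA of 7 ileal scrapings was sequenced by the authors as stranded poly(A) libraries, and they deposited raw counts of reads on the exons of each gene, without normalization. The submitters' processing notes and the study's methods name Trim Galore 0.6.5, SortMeRNA, STAR, featureCounts and GRCm38. The strand setting of the counting and the treatment of reads with several matches are not given in the sources used here. Genes were filtered with filterByExpr of edgeR 4.0.16 (minimum count 10, minimum total count 15), scaled by TMM and compared with the robust quasi-likelihood F-test without covariates in R 4.3.3 with Benjamini-Hochberg adjustment across the 14869 genes tested. Log2 CPM used a prior count of 2. The spread between mice of a diet was 25.5% (biological coefficient of variation). DESeq2 1.42.0, limma 3.58.1 (voom), other scalings and filters and leaving out each library were the alternatives. Exact permutation tests used SciPy 1.17.1. The methods were tested on simulated counts. The genes named are the 10 members, those of each list with an adjusted p under 0.05, its 2 smallest p-values or its highest level per length, the defining markers and the 10 genes most like the classical chains and Cd74. Outside this rule, H2-Ob, H2-T3, H2-Ea-ps, Ifng, Fabp6 and Brd2 were named after their values were seen. The genes Marchf1, Marchf8 and Mzb1 were matched by identifier. The members and lists were chosen with earlier results of these data known. Sequence sharing was measured over 50-base stretches of GENCODE transcripts. The results of 1 of the 13 lists and of some genes of other lists are not reported here.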

Additional observations from a re-analysis of the deposited data

Results flagged for a closer look

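In the 4 normal cys libraries, replicate 4 lay far below the other 3 for H2-Ab1 and H2-Eb1 on the log2 CPM scale. The gap to the nearest library was 0.959 of the whole range for H2-Ab1 and 0.915 for H2-Eb1, above Dixon's 95% critical value for 4 samples. The mean log2 CPM of the 10 class II genes gave 0.870 for the same library. It contains H2-Ab1 and H2-Eb1, so the 3 values are not independent. H2-DMb1 (0.817), H2-DMa (0.774), H2-Aa (0.757) and Cd74 (0.746) were below the critical value, with the same library farthest away. Chance puts about 1 in 20 groups above it, so about 1.2 of the 24 values examined, of which 3 were above it. The 3 low cys libraries were not examined in this way, and low cys replicate 1 was below normal cys replicate 4 for H2-Ab1, at 469 against 541 CPM.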

How the results depend on the processing

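Of the 10 genes, 0 had an adjusted p under 0.05 under any of the 13 alternatives, and the smallest adjusted p was 0.498. At an unadjusted p under 0.05 the number of members lower on low cys ranged from 0 to 1 when libraries were left out (H2-Eb1 without normal cys replicate 4), and was 0 under the other alternatives. Of 130 log2 fold changes of members, 122 kept their sign. The 8 that turned all came from leaving out 1 library, fewer samples being the only change: Ciita (−0.14 without normal cys replicate 4, −0.15 without low cys replicate 2), H2-DMa (0.11 and 0.022 without normal cys replicates 2 and 3, 0.17 without low cys replicate 1), H2-DMb1 (0.030 without low cys replicate 1) and H2-DMb2 (−0.18 without normal cys replicate 4, −0.11 without low cys replicate 2). With each library left out in turn, log2 fold changes ranged from −0.15 to 0.35 for Ciita, −0.23 to 0.17 for H2-DMa, −0.42 to 0.030 for H2-DMb1, −0.18 to 0.27 for H2-DMb2, −0.62 to −0.034 for H2-Aa, −0.48 to −0.056 for H2-Ab1, −0.47 to −0.069 for H2-Eb1, −0.37 to −0.011 for Cd74, −0.19 to −0.084 for Ctss and −0.32 to −0.13 for Ifi30. The libraries of the diets overlapped for the 10 genes on all 3 scales. Each of the 70 mean levels with a library left out stayed within 1 SD. For groups of 3 or 4 this holds by arithmetic, so it does not measure stability.

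Over the whole table, DESeq2 called 16 genes and edgeR 0 to 1 with a library left out (1 without normal cys replicate 2), and the cause was not tested. At an unadjusted p under 0.05, leaving out a library gave 175 to 931 genes higher and 83 to 832 lower on low cys, most without normal cys replicate 1 and fewest without low cys replicate 1. With values centred within each diet, the relation of Cd74 with the enterocyte list turned sign (r = −0.017) and those with the macrophage and stroma lists passed an unadjusted exact permutation p of 0.05 (r = 0.86 and 0.83), while the other 19 kept their direction and side of that threshold, and the cause was not tested.

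With 3 and 4 mice, differences of the classical chains within the intervals given cannot be seen. Counts limit the precision of H2-DMb2 most, with 143 to 433 counts per library, against 28056 to 55651 for Cd74. Protein and the cell of origin were not measured.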
